A study of Mus musculus with 6 samples.

Results

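Ptf1a, Rbpjl, Bhlha15 and Nr5a2 encode 4 transcription factors of the acinar lineage, the enzyme-secreting cells of the exocrine pancreas, and were followed in E13.5 pancreata with and without activated β-catenin. They were chosen by name, as the acinar regulators among the 19938 genes measured by an array row with a single gene symbol. Earlier results of these data were known at that choice, and each factor was measured by 1 row. Embryos of the β-catenin activated group carried Pdx-Cre and a beta catenin-exon3 floxed (active) allele, written Pdx1-Cre; Ctnnb1tm1Mmt/+ in the study's methods. The Pdx1 promoter drives Cre in the early pancreatic epithelium, where recombination deletes exon 3 from 1 Ctnnb1 copy and yields a β-catenin that is not degraded. The reference embryos were wild type, also called control embryos. The sources used here do not say whether these carried Cre or the floxed allele alone. Both groups were E13.5 mouse embryos, and each consisted of 3 independent pools of 3 pancreata, each pool hybridised to 1 Affymetrix Mouse Gene ST array. Whole pancreata were used, so the RNA came from epithelium, mesenchyme, vessels, blood and nerves together, and according to the study the mutant organs keep some normal-looking cells, likely because Cre did not excise the allele in every cell.

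PTF1A is a basic helix-loop-helix protein that is required to form the pancreas in mice and later drives the acinar program. It acts in a trimer, the PTF1 complex, with an E protein and an RBPJ-type protein, and RBPJL takes the place of RBPJ in this complex as acinar cells form. BHLHA15, also called MIST1, is a basic helix-loop-helix factor that scales up the secretory apparatus of acinar and other secretory cells. NR5A2, also called LRH-1, is an orphan nuclear receptor that acts with the PTF1 complex on genes of digestive enzymes. At E13.5 the mouse pancreas is a branching epithelium whose tips hold the proacinar progenitors.

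All 4 factors were lower in β-catenin activated pancreata than in wild type pancreata, by 4.93-fold for Ptf1a, 5.02-fold for Rbpjl, 6.46-fold for Bhlha15 and 9.65-fold for Nr5a2. Each passed an adjusted p of 0.05 in limma, a linear model fitted to all genes with the Benjamini-Hochberg adjustment over all of them. For comparison, 7.53% of all genes tested (1502 of 19938) were lower by the same rule and 6.59% (1313 genes) were higher, 14.1% in all. All 4 factors also changed at least 2-fold, as did 2.09% of all genes in the lower direction. The median change over all genes was 0.03 on the log2 scale. The 3 activated pools lay below the 3 wild type pools for all 4 factors, whereas 13.9% of all genes were separated in that direction. The study itself lists these factors among pancreatic genes lost in these samples, so their shared direction is not independent evidence. The activated means of Ptf1a and Bhlha15 lay at percentiles 23.1 and 31.2 of all gene means, against 57.2 and 70.9 for their wild type means. No detection calls were used, so it is not shown that either was above background in activated pancreata, and the folds may be lower bounds. The activated means of Rbpjl and Nr5a2 were at percentiles 41.9 and 49.8, against 76.1 and 93.8 in wild type. Without detection calls the same limit holds for them. In bulk RNA, fewer cells of a type and less RNA per cell cannot be told apart.

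The array value of Ptf1a was 5.56, 5.21 and 5.20 on the log2 scale in the activated pools, against 7.22, 8.11 and 7.55 in the wild type pools. The group means were 5.32 ± 0.21 and 7.63 ± 0.45 (SD, n = 3 each, activated first), a log2 change of -2.30 (SE 0.20, 95% interval -2.76 to -1.85, adjusted p = 4.36e-05 from limma). The highest activated pool was 1.65 log2 units below the lowest wild type pool, so the separation was wider than the range of 0.90 among the wild type pools.

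Rbpjl, the acinar form of the RBPJ-type subunit, had values of 6.55, 6.73 and 6.23 in the activated pools and 8.35, 9.59 and 8.55 in the wild type pools. Its means were 6.50 ± 0.25 in activated and 8.83 ± 0.67 in wild type pancreata (SD, n = 3 each), and its log2 change was -2.33 (SE 0.28, 95% interval -2.95 to -1.70, adjusted p = 0.000318 from limma). Wild type pool 2 stood more than a log2 unit above the other wild type pools, and all of them remained above every activated pool.

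Bhlha15 was measured at 5.93, 5.92 and 5.58 in the activated pools and at 7.68, 9.45 and 8.38 in the wild type pools. The means were 5.81 ± 0.20 in activated and 8.50 ± 0.89 in wild type pancreata (SD, n = 3 each), with a log2 change of -2.69 (SE 0.35, 95% interval -3.47 to -1.91, adjusted p = 0.000537 from limma). The wild type pools of Bhlha15 spanned 1.76 log2 units, about as much as the gap of 1.75 that separated the groups.

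Nr5a2 was at 7.28, 6.98 and 6.98 in the activated pools and 10.26, 10.42 and 10.37 in the wild type pools. Its means were 7.08 ± 0.17 in activated and 10.35 ± 0.08 in wild type pancreata (SD, n = 3 each). The log2 change of -3.27 (SE 0.11, 95% interval -3.52 to -3.02, adjusted p = 1.42e-07 from limma) placed Nr5a2 at rank 11 of all genes by p and at rank 22 among the decreases by size. Ptf1a, Rbpjl and Bhlha15 held ranks 89, 87 and 59 by size of decrease as measured.

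**Figure D1:**
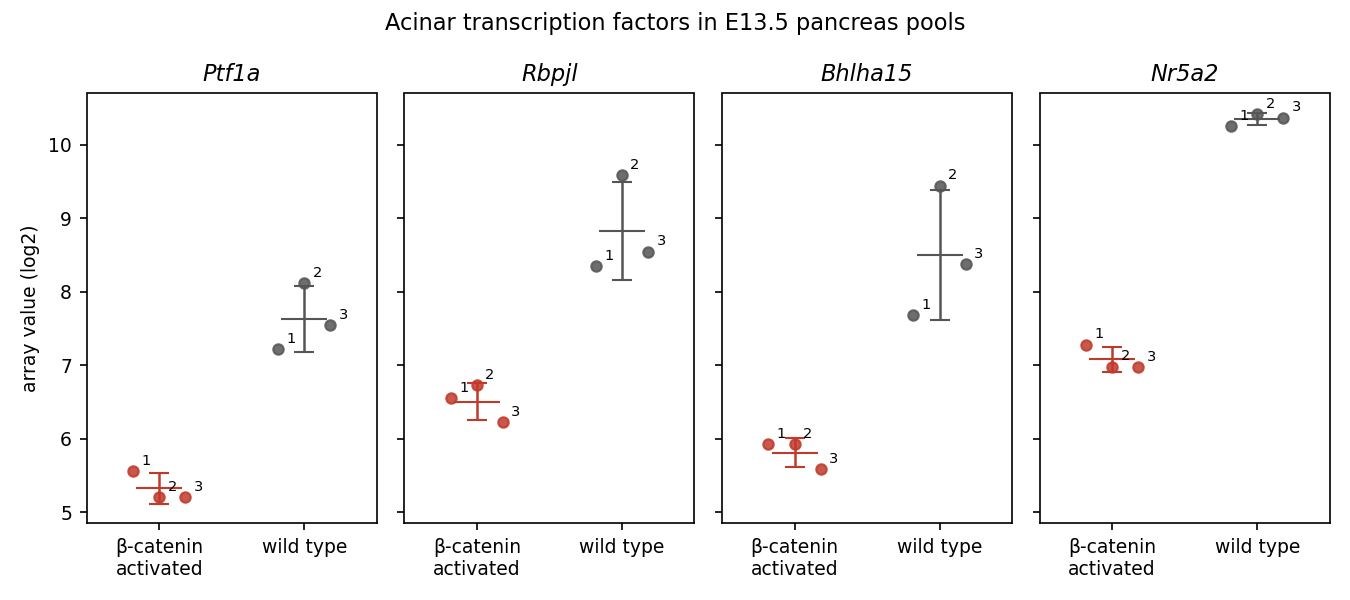
Array values (log2) of Ptf1a, Rbpjl, Bhlha15 and Nr5a2 in the β-catenin activated pools (red, left) and the wild type pools (grey, right), with points numbered by pool and bars for the mean and SD (n = 3 pools). Activated and wild type pools do not overlap for any of the 4 factors, and the wild type pools of Nr5a2 lie within 0.16 log2 units, against 1.76 for Bhlha15.

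The difference between groups was larger than the spread between pools for each factor, but the wild type spread itself was uneven. The wild type SD of Bhlha15 was at percentile 99.9 of all genes, that of Rbpjl at 99.7 and that of Ptf1a at 99.0, whereas that of Nr5a2 was at percentile 31.9. Because limma draws large spreads toward that of all genes, the intervals given for Bhlha15, Rbpjl and Ptf1a are narrower than their own pools would give. In all 4 factors wild type pool 2 was highest, pool 3 second and pool 1 lowest, an order seen in 16.1% of all genes and in 19% of the genes called lower. For Nr5a2 this order rests on a range of 0.16. Set against the activated mean, Bhlha15 was 3.66-fold higher in wild type pool 1, 12.4-fold higher in pool 2 and 5.92-fold higher in pool 3. Rbpjl was 3.60-fold, 8.50-fold and 4.12-fold higher in the same pools, and Ptf1a 3.72-fold, 6.92-fold and 4.67-fold. For Nr5a2 these ratios stayed at 9.05, 10.1 and 9.78. Thus the size of the loss of Ptf1a, Rbpjl and Bhlha15 depended on the wild type pool used, and that of Nr5a2 scarcely did. Without wild type pool 2 the log2 changes were -2.06 for Ptf1a, -1.95 for Rbpjl, -2.22 for Bhlha15 and -3.23 for Nr5a2, and all passed the same threshold.

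The full pool order also held in 13 of the 27 measured digestive enzyme and granule genes, and pool 2 was highest in 20. It held in 8 of the 13 that fell, which were selected partly through their wild type values. Pool 2 was the highest wild type pool in 10 of these and pool 1 the lowest in 10, while pool 1 was lowest in 28.5% of all genes. A high pool 2 was not particular to acinar genes, since it was highest in 11 of 13 endocrine, 18 of 23 general epithelial and 5 of 6 neural and glial genes. It was not general either, with pool 2 highest in 2 of 17 liver, 3 of 11 mesenchyme, 1 of 8 endothelial, 1 of 5 blood and 0 of 3 gastric chief cell genes. Pool 2 was also highest in 71 of the 100 genes with the most negative change, in 49.2% of all genes that fell and in 38.8% of all genes. Wild type pool 2 was highest in 58.8% of the 291 microRNA genes as well. Transcripts of the Y chromosome varied between the same pools. Eif2s3y, a Y-linked translation factor gene, had values of 7.69, 6.35 and 7.81 in the activated pools and 3.68, 7.63 and 6.72 in the wild type pools. Xist, the RNA that silences an X chromosome in female cells, had values of 10.21, 10.99 and 10.35 in the activated pools and 11.82, 11.41 and 12.20 in the wild type pools (adjusted p = 0.0036 from limma). Wild type pool 1 was thus lowest for Eif2s3y as for the 4 factors, and Xist was higher in every wild type pool than in any activated pool. The part of the sex makeup of the pools, or of their exact stage, in the values of the factors was not tested.

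**Figure D2:**
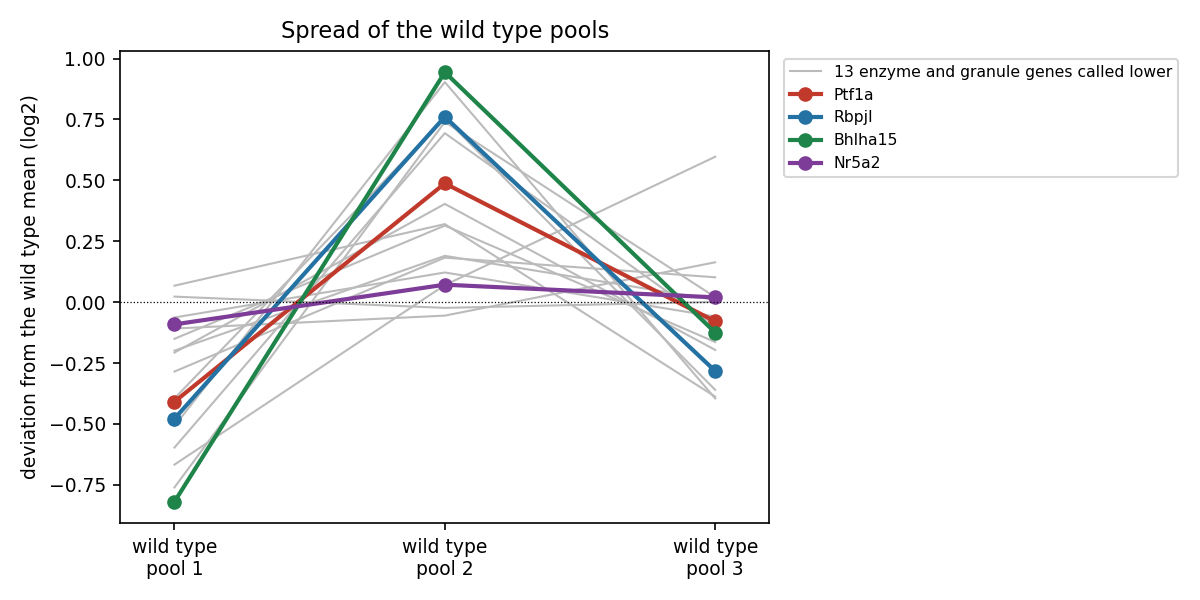
Deviation of each wild type pool from the wild type mean of the gene (log2) for Ptf1a, Rbpjl, Bhlha15 and Nr5a2 (coloured) and for the 13 enzyme and granule genes that were lower in activated pancreata (grey), with lines joining the values of 1 gene. Bhlha15 deviates by -0.82 in pool 1 and 0.94 in pool 2, whereas Nr5a2 stays between -0.09 and 0.07.

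To compare the measured changes of the factors, the log2 values of each pair were subtracted within each array and compared between the genotypes in 6 pairs. The decrease of Nr5a2 exceeded that of Ptf1a by 0.97 log2 units (95% interval 0.36 to 1.57), that of Rbpjl by 0.94 (-0.11 to 2.0) and that of Bhlha15 by 0.58 (-0.75 to 1.91). Exact two-sided permutation p was 0.1 for the first and second of these pairs, the smallest that 3 pools against 3 allow, and 0.4 for the third. After adjustment over the 6 pairs the p-values were 0.3, 0.3 and 0.48 (exact permutation test). Among the other factors, Ptf1a and Rbpjl differed in their change by 0.02 (-0.59 to 0.64), Ptf1a and Bhlha15 by 0.39 (-0.38 to 1.15) and Rbpjl and Bhlha15 by 0.36 (-0.14 to 0.86). The exact test cannot pass the threshold in any pair at this size, while the interval for Ptf1a and Nr5a2 excludes 0, and the intervals leave room for differences of over 0.5 log2 units in each pair. If the activated values of Ptf1a or Bhlha15 are at background, these differences measure the array's limit and not the degree of loss.

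General epithelial genes were lower as well. Of 23 general epithelial genes 21 were lower, among them Prss8, a membrane serine protease (log2 change -2.02), the keratin gene Krt8 (-1.84) and Cdh1, which encodes E-cadherin (-1.68). The 2 others were Grhl2 at -0.27 and St14 at 0.23 (adjusted p = 0.0748 and 0.322 from limma). The mean of the 23 genes was 8.82, 8.69 and 8.80 (log2) in the activated pools and 9.64, 9.81 and 9.59 in the wild type pools. When that mean was subtracted from each array, the log2 changes of the factors became -1.39 for Ptf1a, -1.42 for Rbpjl, -1.78 for Bhlha15 and -2.36 for Nr5a2, and all 4 passed the same threshold (adjusted p = 8.04e-06, 5.95e-05, 5.32e-05 and 1.99e-08 from limma). With this centring 19000 of 19938 genes passed as higher and 303 as lower, so a pass alone says little. These adjusted p-values are not comparable with those before centring. The groups still did not overlap for the 4 factors, but the share of all genes separated after this centring was not counted. Ptf1a minus the epithelial mean, for example, was -3.25, -3.48 and -3.60 in the activated pools, against -2.42, -1.69 and -2.04 in the wild type pools. The wild type SD after this subtraction was 0.80 for Bhlha15, 0.56 for Rbpjl, 0.36 for Ptf1a and 0.10 for Nr5a2, so the uneven spread remained. The order of the wild type pools stayed the same for Ptf1a, Rbpjl and Bhlha15, but for Nr5a2 pool 3 became highest and pool 2 lowest. This scaling moves the median change of all genes to 0.94, and the changes are relative to the mean of the 23 epithelial genes.

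**Figure D3:**
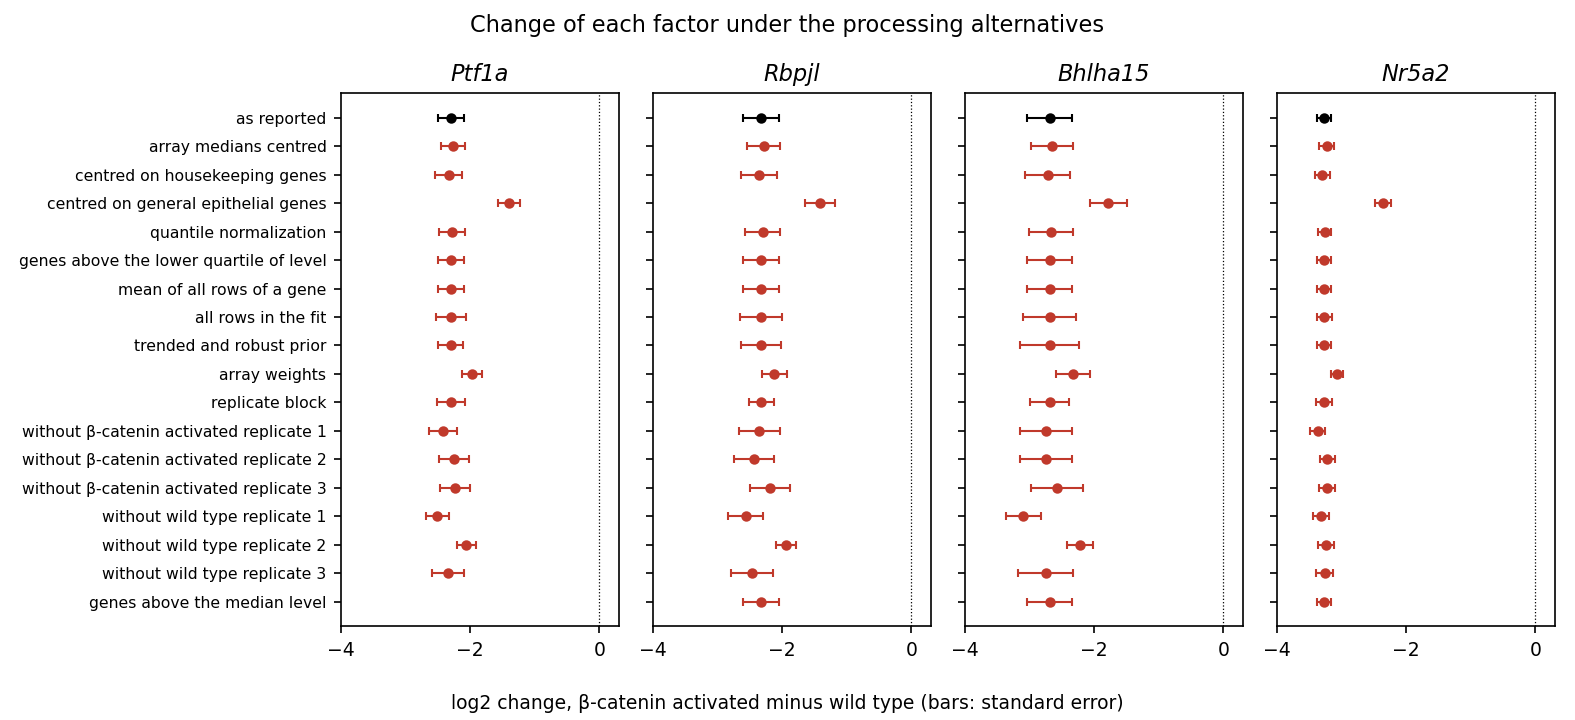
Log2 change of Ptf1a, Rbpjl, Bhlha15 and Nr5a2, β-catenin activated minus wild type, as reported (black) and under each processing alternative (red), with bars for the standard error. Every change lies below 0, and those nearest to 0 come from centring on the general epithelial genes (-1.39 for Ptf1a and -2.36 for Nr5a2).

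PTF1A needs partners, and none of the 4 common ones passed the test. The E protein genes Tcf3, Tcf4 and Tcf12 had log2 changes of 0.19 (95% interval -0.04 to 0.43), 0.25 (0.03 to 0.47) and 0.15 (-0.06 to 0.35), with adjusted p = 0.303, 0.139 and 0.385 from limma. Rbpj, the widely expressed paralogue of Rbpjl and the nuclear effector of Notch, was measured at 9.76, 9.59 and 9.78 in the activated pools and at 9.67, 9.55 and 9.56 in the wild type pools. Its change of 0.12 (95% interval -0.10 to 0.33, adjusted p = 0.517 from limma) had an interval that did not reach that of Rbpjl. These partners are made in many cell types of the organ, so their bulk values do not give their level in the epithelium.

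Genes for proteins that hold basic helix-loop-helix factors in check were in part higher. Of 10 inhibitors and Notch effectors, 4 rose, 1 fell and 5 did not pass, with a median change of 0.28, beside the median of 0.03 over all genes. The ID proteins bind E proteins and keep them off DNA, and Id3 had values of 9.11, 8.93 and 9.56 in the activated pools and 7.59, 7.90 and 7.69 in the wild type pools, a log2 change of 1.48 (SE 0.16, adjusted p = 0.00016 from limma). Id4 rose by 1.18, Hey2, a Notch-responsive repressor, by 1.10 and Id1 by 0.78. Nrarp, a feedback inhibitor of Notch, fell by 1.27 (SE 0.12, adjusted p = 8.92e-05 from limma). Hes1, which restrains Ptf1a-driven acinar differentiation in mice, had a change of 0.13 (95% interval -0.08 to 0.34, adjusted p = 0.468 from limma). Mesenchyme and vessels also express Id and Hey genes, and the cells that hold these transcripts cannot be told from bulk values.

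About as many genes of the acinar product fell as did not pass. Of 27 measured genes for digestive enzymes and zymogen granule proteins, 13 fell, 1 rose and 13 did not pass, with a median change of -0.51. Several of those that did not pass, such as Gp2 (wild type mean 4.56), had low values in wild type already. A decrease might not be measurable there, although Amy1 was called lower from a wild type mean of 5.13. After centring on the general epithelial genes 10 were lower and 14 higher, beside 303 lower and 19000 higher of all 19938 genes. A higher call under that centring is thus the usual outcome and does not mark a rise. Ctrb1, which encodes chymotrypsinogen, had values of 6.93, 6.91 and 6.53 in the activated pools, against 11.67, 13.08 and 11.78 in the wild type pools (log2 change -5.38, SE 0.31, adjusted p = 2.75e-06 from limma). Pnliprp1, a pancreatic lipase-related gene, changed by -5.28 and Clps, the gene for the lipase cofactor colipase, by -4.87. Cpa1, a carboxypeptidase gene that marks the tips of the branching epithelium, had values of 9.52, 9.36 and 9.05 in the activated pools and 13.10, 13.29 and 13.11 in the wild type pools, a log2 change of -3.86 (SE 0.13). The groups did not overlap in any of the 13 genes that fell, but these were selected by the test on the same values. Over all genes, 13.9% were separated in that direction. Rnase1, a secreted ribonuclease gene also made by vessels, rose by 0.34 (adjusted p = 0.0376 from limma), but in 11 of 19 alternatives, housekeeping centring and the replicate block among them, no gene of the list was higher. Several trypsinogen, elastase and amylase genes of the list are near-identical copies, so their single values are uncertain.

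Of 10 genes reported to depend on MIST1 in mouse tissues, 7 fell, 1 rose and 2 did not pass, with a median of -0.71. This count depends on the scaling and the threshold. After centring on the general epithelial genes 1 was lower and 4 were higher, beside 303 lower and 19000 higher of all 19938 genes. Without centring, 2 were lower by at least 2-fold. Gjb2, a gap junction gene, had values of 6.06, 6.36 and 5.88 in the activated pools and 8.39, 8.41 and 8.36 in the wild type pools (log2 change -2.29, SE 0.12, adjusted p = 1.56e-06 from limma). The change was -1.10 for Serpini1, -0.96 for Tpd52 and -0.91 for Rab3d, a small GTPase of secretory granules. Rab26, another granule GTPase, had values of 6.08, 6.07 and 5.96 in the activated pools and 6.47, 7.23 and 6.55 in the wild type pools, a log2 change of -0.71 (SE 0.18, adjusted p = 0.0245 from limma). Copz2, a coat protein gene, rose by 0.49, but in 8 of 19 alternatives, the replicate block among them, no gene of the list was higher. Gjb1, a gap junction gene under MIST1 control in the adult pancreas, had a change of 0.35 (95% interval 0.04 to 0.65, adjusted p = 0.137 from limma).

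Of 11 genes known as NR5A2 targets or partners in liver, gut and pancreas, 2 fell and 9 did not pass, with a median of -0.05, beside the 7.53% of all genes that were lower. Several of the 9, such as the bile acid synthesis gene Cyp7a1 at 2.59, 3.28 and 3.04 in the activated pools and 3.01, 3.07 and 3.29 in the wild type pools, had low values in wild type already, and a decrease might not be measurable there. The 2 were Cel, the carboxyl ester lipase gene of acinar cells, and Nr0b2, which encodes the corepressor SHP. Cel is also counted among the digestive enzyme genes that fell. Cel had values of 5.63, 5.76 and 5.34 in the activated pools and 9.12, 10.27 and 9.15 in the wild type pools, a log2 change of -3.93 (SE 0.27, adjusted p = 7.43e-06 from limma). Nr0b2 had values of 5.26, 5.86 and 5.30 in the activated pools and 6.87, 7.27 and 6.83 in the wild type pools, a change of -1.52 (SE 0.18, adjusted p = 0.000263 from limma). Ccnd1, a cyclin gene that NR5A2 acts on with β-catenin in the gut, had a change of 0.02 (95% interval -0.19 to 0.22). The paralogue Nr5a1, the steroidogenic factor gene of gonad, adrenal and spleen primordium, had a change of 0.06 (95% interval -0.17 to 0.29, adjusted p = 0.793 from limma).

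Of 8 genes that serve the endoplasmic reticulum and secretion in acinar cells, 3 fell and 5 did not pass, with a median of -0.28. After centring on the general epithelial genes 1 was lower and 6 were higher, beside 303 lower and 19000 higher of all 19938 genes. Nupr1, a stress-responsive chromatin protein gene, fell by 2.19 (SE 0.16, adjusted p = 1.28e-05 from limma), Ern1, the stress sensor IRE1α, by 0.80 and Creb3l1, a membrane-bound factor of secretory cells, by 0.54. Xbp1, a driver of secretory capacity that is spliced by IRE1α, had a change of -0.36 (95% interval -0.64 to -0.07, adjusted p = 0.101 from limma).

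**Figure D4:**
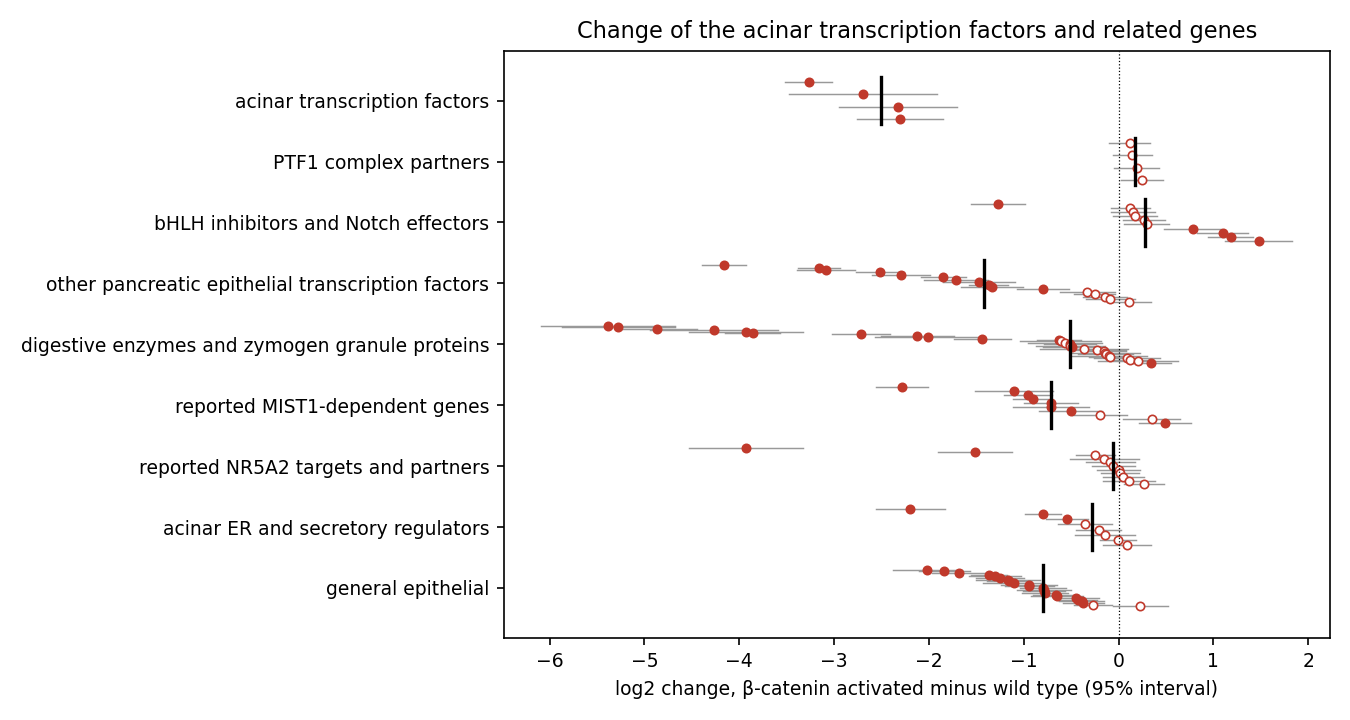
Log2 change, β-catenin activated minus wild type, with its 95% interval, for the 4 acinar transcription factors and the genes of 8 related lists (filled points passed an adjusted p of 0.05, open points did not, black bars are list medians). The 4 factors lie between -3.27 and -2.30, whereas the PTF1 complex partners lie between 0.12 and 0.25.

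The decrease was not particular to acinar regulators. Of 16 other measured transcription factor genes of the pancreatic epithelium, 11 fell and 5 did not pass, with a median of -1.42. Pdx1, needed to form the pancreas, changed by -4.16 (SE 0.10), Nkx2-2, a factor of endocrine cells, by -3.16 (SE 0.10) and Onecut1, a factor of early progenitors and ducts, by -3.08 (SE 0.14). The 5 that did not pass were Sox9 (-0.33), Gata6 (-0.25), Nkx6-2 (-0.15), Prox1 (-0.09) and Foxa2 (0.11). Of 13 endocrine genes 11 fell, 1 rose and 1 did not pass, with a median of -2.61, and Neurog3, the inducer of the endocrine lineage, changed by -4.61. The gene that rose was Isl1, a factor also made in mesenchyme, at 0.49 (adjusted p = 0.0259 from limma).

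Genes of other tissues that use these factors were examined beside them. Ptf1a also acts in the developing spinal cord, cerebellum and retina, and of 7 genes of those sites 1 fell and 6 did not pass. The 1 was Lhx1, a homeobox gene that is also active outside the nervous system (-1.52, SE 0.12), while Prdm13, the direct neural partner of Ptf1a, had a change of 0.18 (adjusted p = 0.245 from limma). Several of the 6, such as Prdm13 (wild type mean 5.86), had low values in wild type already, and a decrease might not be measurable there. All 6 measured neural and glial genes fell, with a median of -0.63, and Ret (-2.59), a receptor gene of enteric neurons, Dcx (-2.32) and Tubb3 (-0.66) led them. After centring on the general epithelial genes 2 of the 6 were lower and 3 higher, beside 303 lower and 19000 higher of all 19938 genes. Bhlha15 is made by gastric chief cells too, and none of 3 chief cell genes passed, the lowest adjusted p being 0.534 for Cblif at 0.11. All 3 had low wild type means, from 5.21 for Cblif to 5.43 for Pga5. A decrease might not be measurable there, so these genes do not tell whether chief cells added to Bhlha15. Nr5a2 is made by fetal liver. Of 17 liver genes 7 fell, and Serpina6 (-5.39), Ambp (-4.97) and Vtn (-4.42) led them, but Alb and Afp, which define hepatocytes, had changes of -0.50 and -0.12 (adjusted p = 0.441 and 0.599 from limma). In wild type pools 1, 2 and 3 Alb was uneven, at 6.75, 7.13 and 8.50, while Afp was at 7.91, 7.66 and 7.87. The part of liver cells in the values of Nr5a2 was not tested. Of 13 stomach and intestine genes 5 rose and 1 fell, with Lgr5 at 4.44, Barx1 at 1.25 and Vil1 at -1.19. Of 11 mesenchyme genes 4 rose and 2 fell, with a median of 0.03. All 8 measured Wnt target genes rose, with a median of 1.98, and Lgr5 is counted in this list as well. Ctnnb1 itself was at 12.64, 12.37 and 12.65 in the activated pools and 12.36, 12.14 and 12.33 in the wild type pools (log2 change 0.28, SE 0.11, adjusted p = 0.148 from limma), and its row spans the transcript, so deletion of exon 3 cannot be read from it.

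The genes with the pattern most like each factor were found by the Euclidean distance between log2 values over the 6 arrays, each gene centred on its own mean. Nearest to Ptf1a were Nupr1 at 0.287, Il22ra1, a subunit of the interleukin-22 receptor, at 0.391 and St18, a zinc finger factor gene, at 0.456, followed by Hepacam2 at 0.470 and Ffar2 at 0.475. Nearest to Rbpjl were Vwa5b2 at 0.406, Slc38a3, an amino acid transporter gene, at 0.519 and Ptf1a itself at 0.543, then Cck, the gene of the hormone cholecystokinin, at 0.550 and St18. Nearest to Bhlha15 were Iapp, the gene of the islet peptide amylin, at 0.561, Rbpjl at 0.627, Tinag at 0.710, Ptf1a at 0.825 and Vwa5b2 at 0.865. Ptf1a was thus among the 5 genes nearest to Rbpjl and to Bhlha15, and these neighbours included endocrine as well as acinar genes. Iapp had a wild type SD of 1.04, and like Bhlha15 it was highest in wild type pool 2. The neighbours of Nr5a2 were others: Aldh1b1, an aldehyde dehydrogenase gene of pancreatic progenitors, at 0.210, Gsta3, a glutathione transferase gene, at 0.301, Elapor1 at 0.334, Fam183b at 0.342 and Nkx2-2 at 0.353. The distance of Nr5a2 to Ptf1a, Rbpjl and Bhlha15 was 1.299, 1.485 and 1.372. The values were not scaled, so the distances largely follow the size of the change. The 5 neighbours of Nr5a2 had log2 changes from -3.26 to -3.12, beside -3.27 for Nr5a2 itself. These distances describe 6 arrays and carry no test.

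The sequence before each start site was read from RefSeq (GRCm38.p6, all 4 factors matched) because the PTF1 complex binds a bipartite site, an E-box, CANNTG, next to a TC-box, TGGGAA. Both were searched on both strands in the 250 bases upstream of the start, together with CATATG, an E-box preferred by MIST1 that is also counted among the E-boxes. The core of the TCF/LEF site, CTTTGA, was searched as well, and so was the site of NR5A2 monomers, CAAGGTCA. Both motifs occur side by side upstream of Rbpjl, whose promoter is a known PTF1 target in mice. The 30 bases shown run from 106 to 77 bases before the start at chr2:164403088-164403117 on the plus strand, with the matches in capitals.
Rbpjl: cgTGGGAAgcctaCATCTGcccagCAGGTG
The TGGGAA is 5 bases from the first E-box and 16 bases from the second. Of 32851 promoter windows of this length 66.2% hold a CANNTG and 21.6% a TGGGAA, so either alone is common. Windows that hold both, or both at this spacing, were not counted, so it is not shown that the pair is uncommon.

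The windows of the other factors are shown for comparison, with the same motifs in capitals. Ptf1a (chr2:19445413-19445662, plus strand) holds 1 TGGGAA and no CANNTG, and Bhlha15 (chr5:144190036-144190285, plus strand) holds 3 CANNTG and no TGGGAA. Nr5a2 has 2 starts in the table, at chr1:136960449-136960698 and chr1:136953631-136953880 on the minus strand, with 2 and 3 CANNTG.
Ptf1a: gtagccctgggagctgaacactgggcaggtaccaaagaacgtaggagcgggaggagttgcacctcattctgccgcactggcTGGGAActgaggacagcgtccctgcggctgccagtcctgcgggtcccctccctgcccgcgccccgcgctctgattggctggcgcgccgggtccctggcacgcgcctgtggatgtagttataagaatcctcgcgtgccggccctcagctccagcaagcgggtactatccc
Bhlha15: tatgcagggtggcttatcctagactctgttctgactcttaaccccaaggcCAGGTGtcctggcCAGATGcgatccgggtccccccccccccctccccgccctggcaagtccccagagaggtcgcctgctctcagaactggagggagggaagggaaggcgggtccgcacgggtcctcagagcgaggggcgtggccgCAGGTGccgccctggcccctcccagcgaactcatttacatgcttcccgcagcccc
Nr5a2, first start: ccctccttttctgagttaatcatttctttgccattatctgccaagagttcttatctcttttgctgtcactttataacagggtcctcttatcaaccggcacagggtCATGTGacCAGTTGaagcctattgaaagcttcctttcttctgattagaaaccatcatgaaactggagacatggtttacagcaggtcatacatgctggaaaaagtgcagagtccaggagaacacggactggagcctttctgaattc
Nr5a2, second start: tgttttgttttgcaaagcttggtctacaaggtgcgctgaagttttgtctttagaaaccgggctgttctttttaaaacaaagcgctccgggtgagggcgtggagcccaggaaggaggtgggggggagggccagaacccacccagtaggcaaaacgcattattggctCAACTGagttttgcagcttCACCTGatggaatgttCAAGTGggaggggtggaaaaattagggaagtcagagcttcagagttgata
None of these windows, nor that of Rbpjl, holds CATATG, which occurs in 3.46% of all windows. They also hold neither the TCF/LEF core CTTTGA (13.8% of all windows) nor the NR5A2 site CAAGGTCA (1.33%). A match is a description of letters, and its absence from a window says nothing of binding by the factor.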

How the data were processed

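RNA of 6 pools of E13.5 pancreata, 3 per genotype, was measured on 1 array each. Genotype and replicate were taken from the sample labels. The authors deposited log2 values, 1 row for each transcript cluster, normalized between arrays. The sources used here do not name the background correction, summarization, normalization or genome build, and the methods name limma. Array medians lay between 6.37 and 6.47 (log2). No detection calls were used, so the precision is limited by the number of arrays and by an unknown background level. Pools are separate samples, and p-values rest on the spread between them, which limma draws toward the spread of all genes. For genes of large spread the SE is then smaller than their own pools would give. With a trended and robust prior, for example, the SE of Bhlha15 was 0.45, against 0.35 as reported.

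Rows were named through the platform annotation. Of 35556 rows, 21789 had 1 symbol, 1621 several and 12146 none, and only the first kind was tested, with the row of highest mean for each of 19938 genes. Entrez identifiers of 19856 genes matched RefSeq (GRCm38.p6), which changed 0 symbols. Differences are β-catenin activated minus wild type, from limma 3.58.1 (R 4.3.3) without covariates or filters, moderated by eBayes, with Benjamini-Hochberg adjustment at 0.05. The step was tested on simulated data. Motifs, tables and figures used Python 3.11.15, pandas 2.3.3 and matplotlib 3.10.9.

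The 4 factors and all lists were chosen with earlier results of these data known. The named genes are the factors, the PTF1 partners, Ctnnb1, Nr5a1, the 5 genes nearest to each factor, and from each list up to 3 with the largest change past the test, or the 1 of lowest p where none passed. Chosen after their values were seen were Grhl2, St14, Id1, Hey2, Hes1, Cpa1, Rnase1, Gp2, Amy1, Rab3d, Rab26, Copz2, Gjb1, Ccnd1, Cyp7a1, Isl1, Xbp1, Sox9, Gata6, Nkx6-2, Prox1, Foxa2, Prdm13, Alb, Afp, Eif2s3y and Xist. Alternatives were other centrings, quantile normalization, filters on level, other rows, priors, array weights, thresholds, a replicate block and each pool left out.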

Additional observations from a re-analysis of the deposited data

How the results depend on the processing

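The changes of Ptf1a, Rbpjl, Bhlha15 and Nr5a2 kept their direction and passed the threshold under every alternative run, with log2 changes from -2.51 to -1.39, -2.57 to -1.42, -3.10 to -1.78 and -3.37 to -2.36. Their highest adjusted p was 0.0023, 0.00848, 0.0126 and 4.74e-05 from limma. Each value nearest to 0 came from centring on the epithelial genes. Leaving out 1 pool gave -2.51 to -2.06, -2.57 to -1.95, -3.10 to -2.22 and -3.37 to -3.22. Ptf1a lay below the median level of all genes and was not tested with that filter. Counts over all genes were less stable. Of 1313 genes higher and 1502 lower, 19000 and 303 were found after centring on the epithelial genes and 3025 and 2422 with array weights. A requirement of at least 2-fold left 260 and 417. With all rows in the fit 751 genes were higher, and at an adjusted p of 0.01 723. Leaving out 1 pool gave 843 to 1328 higher and 1132 to 1413 lower genes, the lowest without activated pool 1 in both. The share of calls that were higher was 46.6%, and 98.4% after epithelial centring. Of 760 list values under the alternatives, 639 stayed close to the reported value and 121 moved. Pools of the same number did not deviate together (r = 0.014, -0.154 and -0.0464). With the replicate number as a block, 1011 genes were higher and 1274 lower, and the 4 factors passed (adjusted p = 0.00116, 0.000628, 0.00213 and 3.35e-05 from limma). With 6 arrays, pairwise differences between factors under about 1 log2 unit are poorly resolved.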
